A study of Mus musculus with 83 samples.

Results

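The miR-106b-25 cluster is a group of 3 miRNA hairpins, Mir106b, Mir93 and Mir25, carried by *Mcm7*, the gene of a subunit of the MCM helicase that unwinds DNA ahead of the replication fork. These 3 miRNAs and their host were taken by name from the table, 4 members of 32101 features. In the genome build of the files (NCBIM37) *Mcm7* lay on the minus strand at chr5:138605811-138613650, a span of 7840 bp with 15 exons in the transcript Mcm7-001. All 3 hairpins lay in intron 13 (chr5:138606390-138607137, 748 bp) and on the strand of the host. Mir106b was at chr5:138606965-138607046, Mir93 at chr5:138606751-138606838 and Mir25 at chr5:138606549-138606632, with 126 and 118 bp between neighbours.

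**Figure D1:**
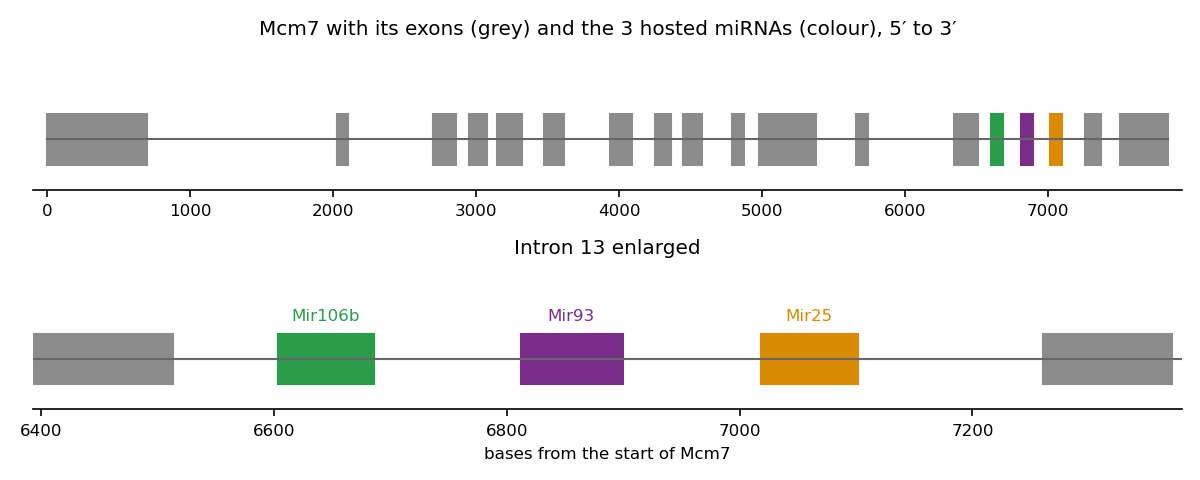
The top track draws *Mcm7* from its start to its end with its 15 exons in grey, and the bottom track enlarges intron 13. The x axes are bases from the start of the gene. Mir106b begins 6604 bases from the start, Mir93 6812 and Mir25 7018, all between exons 13 and 14.

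Small RNA of 20 to 24 nt was sequenced from mouse embryonic stem cells (ESCs, here of the label E14) that carried loxP sites in *Dnmt1*, the maintenance DNA methyltransferase, and expressed Cre on induction with tamoxifen. They came from 1 line, grown in serum and LIF with or without feeder cells. Whether the controls received tamoxifen was not given in the sources used here. Control and *Dnmt1* KO cells were sampled on days 1, 3, 6, 9, 11 and 25 with 3 libraries per group (36 in all). A further 30 libraries carried the same names for days 1 to 11 with an R1 suffix. AGO2 immunoprecipitates (IPs, RNA held by the Argonaute protein that carries miRNAs) gave 4 control and 4 KO libraries. Their labels carry no day, and per the text of the study the cells of the IP were taken on day 9 after deletion. Another 2 libraries were labelled none, 1 per genotype, and 7 came from sorted primordial germ cells (PGCs) of the stages E13.5 and E14.5. Per the study, the PGCs came from C57BL/6J matings and were sorted by an Oct4-GFP transgene. Groups followed the titles, because the genotype tags contradicted them for AGO2, none and most R1 libraries. Nothing in the labels says that replicates were separate cultures, so that p-values measure the spread between these libraries.

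A library held 870481 to 6239009 reads on days 1 to 11, 521066 to 815523 on day 25, 11497719 to 25423032 in AGO2 control and 1152390 to 11520132 in AGO2 KO. No replicates were alike within counting error (48 pairs, lowest chi-square per degree of freedom 2.15). With all days pooled, small RNA over *Dnmt1* itself ran from 23.1 to 95.02 RPM (reads scaled to a common library total) in control. In KO it ran from 18.1 to 64.3 RPM. On day 6 it was higher in KO without overlap (23.1 to 35.1 RPM in control and 41.6 to 48 in KO). On day 11 it was lower in KO without overlap (29.9 to 32.0 and 18.1 to 25.6). On the other days the genotypes overlapped, and these values did not check the deletion. The 7 miRNAs of the miR-290 cluster, defining for ESCs, summed to 110501 to 208803 RPM over the time course and to 12176 to 24352 RPM in the 4 PGC libraries without suffix. They did not overlap between genotypes on any of the 6 days, being higher in KO on days 1, 3 and 6 (day 6, 110501 to 114233 RPM in control and 130346 to 139059 in KO) and lower in KO on days 9, 11 and 25 (day 25, 175306 to 208803 and 136240.3 to 141175). The 5 fibroblast markers found in the table (1 at 0 in all time course libraries) did not overlap between genotypes from day 3 on: on day 9 they summed to 10984 to 14913 RPM in control and 20919 to 22910.2 RPM in KO, and on day 25 to 954 to 1049.6 and 1247 to 1292 RPM. The 3 blood markers summed to 727 to 837 RPM in control and 1839 to 2129 RPM in KO on day 9, and were also higher in KO without overlap on days 6 and 11. They overlapped on day 3 and were lower in KO without overlap on day 1 (2026 to 2394 RPM in control and 1477 to 1898 in KO) and day 25 (636 to 672 and 437 to 493). The 3 neural markers summed to at most 11.4 RPM. The part of these values in the results was not tested.

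A primary transcript with several hairpins is cut in the nucleus by the Microprocessor and each hairpin is then cut by DICER, after which 1 arm is bound by an Argonaute protein. The seed, bases 2 to 8 of the mature miRNA, directs it to target messages. The miR-106b-25 cluster is a paralog of miR-17-92 and miR-106a-363, and all of them hold a miRNA of the miR-17 seed family and one of the miR-25/92 seed family. The miR-17 family is known to repress *Cdkn1a*, the cell cycle inhibitor p21. It is abundant in cycling cells, ESCs among them. The mature arms are shown to make plain which members share a seed and where they differ outside it (RefSeq, GRCm38.p6, with the seed in capitals).
miR-106b-5p: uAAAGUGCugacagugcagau
miR-93-5p: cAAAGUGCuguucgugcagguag
miR-17-5p: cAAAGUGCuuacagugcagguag
miR-20a-5p: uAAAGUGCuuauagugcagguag
miR-106a-5p: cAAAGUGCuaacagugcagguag
miR-20b-5p: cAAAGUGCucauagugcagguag
miR-25-3p: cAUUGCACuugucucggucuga
miR-92a-3p: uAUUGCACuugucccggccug
miR-363-3p: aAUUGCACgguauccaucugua

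The first 6 share the seed AAAGUGC, which 7 of 1679 mature mouse miRNAs held, and the last 3 share AUUGCAC, which 6 held. Without gaps, miR-93-5p had the same base as miR-106b-5p at 16 positions, as miR-17-5p at 19 and as miR-20b-5p at 20. miR-25-3p matched miR-92a-3p at 18, and miR-363-3p at 10 at best, when shifted against it. Each 20-base stretch of the arms of the 3 members occurred at 1 place in NCBIM37, so that a perfect read of 20 nt or more could be assigned to its own hairpin. The features count whole hairpins, and the 2 arms of a hairpin could not be told apart.

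Mir25 was the member with the most reads and Mir106b the one with the fewest. Whether reads of different miRNAs stand in proportion to their molecules was not tested. In control ESCs of day 1, Mir25 stood at 106455 ± 3149 RPKM (RPM per kilobase of hairpin; mean ± SD, n = 3), Mir93 at 51490.4 ± 2765 RPKM and Mir106b at 8210.0 ± 369 RPKM. The order Mir25, Mir93, Mir106b held in each of the 36 time course libraries and each of the 8 AGO2 IPs. As shares of the reads of the 3 hairpins, Mir25 made up 63.2 ± 0.639%, Mir93 32.0 ± 0.637% and Mir106b 4.76 ± 0.0522%. These neighbours in the order were apart by far more than their spread.

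The host feature was nearly all miRNA. Reads inside the 3 hairpins came to 99.87 to 99.96% of the *Mcm7* reads on days 1 to 11, 99.72 to 99.99% on day 25 and 99.9986 to 100% in AGO2 IPs, so that the value of *Mcm7* restated that of its miRNAs. What was left over the rest of the gene was 8 to 61 reads per library on days 1 to 11, 6.17 to 15.7 RPM. On day 25 the rest of *Mcm7* held 1, 1 and 4 reads in the control libraries (1.79, 1.92 and 4.90 RPM) and 14, 10 and 8 reads in the KO libraries (22.5, 12.8 and 15.2 RPM). The KO values were above all control values, on counts too small to give a fold. *Cops6* and *Ap4m1* overlap the ends of *Mcm7* on the other strand, and whether strand was used in counting was not stated.

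Mir93, the middle hairpin, fell in *Dnmt1* KO ESCs from day 6 on, with an estimate further from 0 at each later day. On days 1 and 3 the genotypes overlapped. On day 25 Mir93 was 3.03-fold lower in KO cells. Mir106b was called lower from day 6 on as well, and Mir25 on days 6 and 25. In RNA of whole cultures, fewer cells with a miRNA and less of it per cell cannot be told apart.

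The Mir93 libraries of day 1 stood at 4660.2, 4683 and 4251 RPM in control and 4330.2, 4679.7 and 4520.2 RPM in KO. On day 3 they were 4631, 4581 and 4579 RPM in control and 4917, 4569 and 4453 RPM in KO. The log2 fold changes, on TMM-scaled log2(RPM + 1) values, were -0.10 ± 0.0755 (SE) and 0.03 ± 0.0755, with adjusted p = 0.657 and 0.86 (limma, Benjamini-Hochberg over 2582 features). Neither day passed the threshold of 0.05, at which 0.93% (day 1) and 1.74% (day 3) of features were called lower, and the sign of day 3 turned without KO library 1 (log2 fold change -0.04).

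On day 6 the control libraries held 5388, 5277 and 5577 RPM of Mir93 and the KO libraries 4163, 3795 and 4107 RPM. All KO libraries were below all control libraries, and the fitted difference was -0.54 ± 0.0755 (adjusted p = 4.33e-07). On that day 69 of the 291 miRNA features tested were called lower. Of all features tested 9.33% were, and all 4 members were among them. That share moves with scaling, from 157 features with library totals to 241 here and 362 with median-ratio factors, and the 4 members were called under all 3. By day 9 Mir93 had 4660.4, 4709 and 4814 RPM in control and 2598, 2804 and 2793 RPM in KO. The difference was -0.68 ± 0.0755 (adjusted p = 2.18e-09), again without overlap. On day 9, 6.12% of all features and 41 of the 291 miRNA features were called lower.

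Day 11 gave 4434, 4235 and 4323 RPM in control and 2425, 2465 and 2378 RPM in KO, a log2 fold change of -0.75 ± 0.0755 (adjusted p = 1.23e-10). On day 11, 2.36% of features were called lower, and Mir93 had the fifth lowest log2 fold change among the 291 miRNA features tested. On day 25 control libraries reached 5694, 6143 and 6306 RPM and KO libraries 1821, 1931 and 1787 RPM. The log2 fold change of -1.60 ± 0.0755 (adjusted p = 4.88e-21) was the seventh lowest of the 291, against 17.0% of features called lower. In the R1-suffixed libraries Mir93 differed by -0.44 on day 6, -0.75 on day 9 and -0.72 on day 11 (adjusted p = 8.26e-04, 1.60e-08 and 5.02e-08). For this they were scaled and fitted together with the day 25 libraries without suffix. The R1-suffixed libraries may hold the same RNA as their namesakes and were not counted as replicates.

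The change of the Mir93 difference between days was itself tested. From day 1 to day 11 it moved by -0.66 ± 0.107 (adjusted p = 1.11e-05; 2.98% of features called lower) and from day 1 to day 25 by -1.50 ± 0.107 (adjusted p = 4.73e-15; 10.2%). Within KO cells Mir93 fell from day 1 to day 11 by 0.74 on the log2 scale (adjusted p = 2.08e-10) and to day 25 by 1.22 (adjusted p = 3.48e-17). Within control cells the day 11 value was -0.08 ± 0.0755 against day 1 (adjusted p = 0.465), and on day 25 Mir93 was higher by 0.28 ± 0.0755 (adjusted p = 0.00182). Between days, 28.2% and 47.1% of features changed in KO cells in either direction (days 11 and 25), and 34.9% and 50.9% in control cells. The fibroblast markers also differed between days 1 and 25. They summed to 9177 to 11333 and 954 to 1049.6 RPM in control, and to 9507 to 11094 and 1247 to 1292 RPM in KO. The part of this in the changes to day 25 was not tested.

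**Figure D2:**
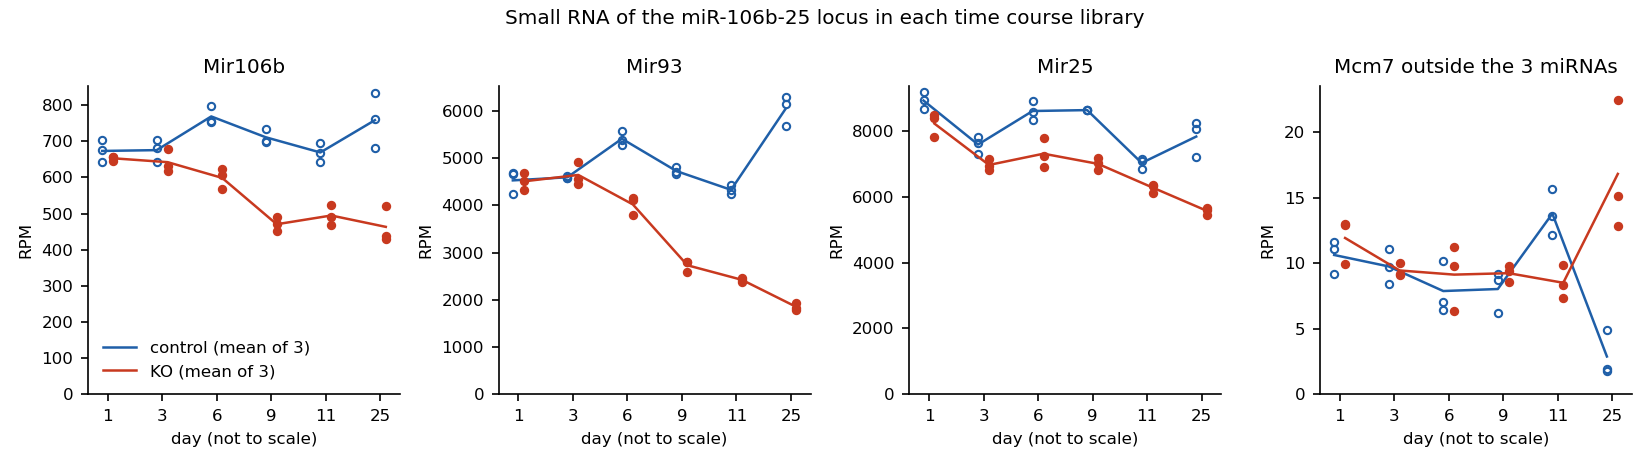
Each point is 1 library, open for control and filled for *Dnmt1* KO, and the lines join the means of 3. The y axes give RPM from 0 and the x axes the day (not to scale). The KO points of Mir93 leave the control points from day 6 on and end at 1847 RPM against 6048, while those of Mir25 differ from control by less, as a share of its level, from day 6 on and by more on days 1 and 3.

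Mir106b shares its seed with Mir93 and lies just upstream of it. Its libraries held 753, 757 and 797 RPM in control and 605, 567 and 623 RPM in KO on day 6, and 698, 701 and 735 against 450.4, 489 and 471 RPM on day 9. On day 11 they held 696, 667 and 643 against 524, 468 and 492 RPM, and on day 25 762, 833 and 681 against 521, 430.3 and 438 RPM. On each of these 4 days the KO libraries were below the control libraries, and the share of all features without overlap was not computed. The log2 fold changes were -0.47 ± 0.0893, -0.48 ± 0.0893, -0.35 ± 0.0893 and -0.60 ± 0.0893 (adjusted p = 9.70e-05, 6.67e-05, 0.00517 and 9.98e-07). Of all features tested, 9.33, 6.12, 2.36 and 17.0% were called lower on these days. Of the 291 miRNA features, 69, 41, 12 and 110 were. The day 11 call was lost without KO library 2 (-0.31, adjusted p = 0.0566) or KO library 3 (-0.28, adjusted p = 0.124).

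On days 1 and 3 Mir106b stood at 673 ± 30.3 and 675 ± 30.1 RPM in control and 653 ± 5.55 and 642 ± 32.5 RPM in KO (mean ± SD, n = 3), and neither difference passed (adjusted p = 0.569 and 0.802). Its difference changed from day 1 to day 25 by -0.47 ± 0.126 (adjusted p = 0.00696). The change to day 11, -0.22 ± 0.126, did not pass (adjusted p = 0.372), but did under scaling by library totals alone (-0.39, adjusted p = 0.0292). In control cells Mir106b on days 11 and 25 differed from day 1 by -0.02 and 0.03, neither past the threshold. In KO cells it fell by 0.43 to day 25 (adjusted p = 8.41e-05). Its fall by 0.24 to day 11 (adjusted p = 0.0376) was lost under median-ratio scaling (adjusted p = 0.110), without KO library 1 of day 1 (0.0527) and without KO library 2 or 3 of day 11 (0.175 and 0.160).

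Mir25, the last hairpin and the one with the miR-92 seed, gave the smallest average difference of the 3. On day 6 it had 8934, 8338 and 8599 RPM in control and 7797, 6907 and 7265 RPM in KO, a log2 fold change of -0.34 ± 0.0796 (adjusted p = 0.00114). In the R1-suffixed libraries the day 6 difference was -0.27 and did not pass (adjusted p = 0.0629). On day 25 it had 8060.4, 8268 and 7209 RPM in control and 5672, 5453 and 5611 RPM in KO, a difference of -0.38 ± 0.0796 (adjusted p = 2.28e-04). Of the 291 miRNA features tested, 69 were called lower on day 6 and 110 on day 25. The median log2 fold changes of these 291 features were 0.11 and -0.20.

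On day 9 the Mir25 libraries held 8663, 8649 and 8641 RPM in control and 6822, 7025 and 7192 RPM in KO. These RPM values did not overlap, and the fitted difference of -0.19 ± 0.0796 did not pass (adjusted p = 0.106). It passed with library totals (-0.30, adjusted p = 7.25e-04), with median-ratio factors (-0.23, 0.0419), with voom weights (-0.19, 0.0293), with day 9 fitted alone (-0.22, 0.0448) and without KO library 3 (-0.28, 0.0360). On day 11 Mir25 had 7041 ± 175 RPM in control and 6292 ± 133 RPM in KO, with a log2 fold change of -0.08 ± 0.0796 (adjusted p = 0.743) that turned to 0.01 without KO library 3. The differences of days 1 and 3 were -0.21 ± 0.0796 and -0.10 ± 0.0796 (adjusted p = 0.179 and 0.548).

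Mir25 also drifted within genotypes. In control cells it was lower than on day 1 by 0.36 on day 11 and 0.32 on day 25 (adjusted p = 3.94e-04 and 7.40e-04), with log2 fold changes of -0.36 and -0.32. In KO cells the values were -0.23 and -0.50 (adjusted p = 0.0262 and 1.46e-06). The day 11 call in KO cells was lost under median-ratio scaling (adjusted p = 0.0830) and without KO library 2 or 3 of day 11 (0.0642 and 0.171). The change of the genotype difference was not called for Mir25 to day 11 (0.13, adjusted p = 0.629) or to day 25 (-0.17, adjusted p = 0.305). With library totals the first turned to -0.04 and the second passed (-0.37, adjusted p = 0.00355).

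Averaged over the 6 days with equal weight, Mir93 was 1.52-fold lower in KO cells (-0.60 ± 0.0308, adjusted p = 6.42e-20), Mir106b 1.27-fold (-0.35 ± 0.0365, 2.61e-10) and Mir25 1.16-fold (-0.22 ± 0.0325, 9.19e-07). Of all features 10.1% were called lower in this average, and of the 291 miRNA features 77. The *Mcm7* feature gave -0.34 ± 0.0302, between the values of Mir93 and Mir25. Per day it was called lower on days 6, 9, 11 and 25 (-0.42, -0.35, -0.30 and -0.78). The *Mcm7* call of day 11 was lost in the R1-suffixed libraries (-0.28, adjusted p = 0.0582) and without KO library 3 (-0.22, adjusted p = 0.168).

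**Figure D3:**
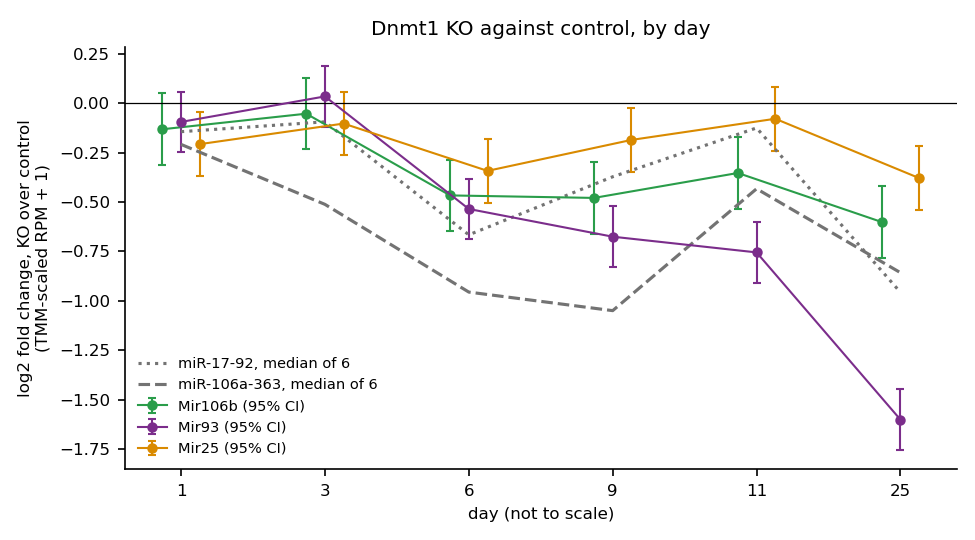
Points are log2 fold changes of KO over control per day from the limma fit, with 95% confidence intervals, and grey lines are the medians of the 6 features of each paralogous cluster. The y axis is on TMM-scaled log2(RPM + 1) values. Mir93 moves from 0.03 on day 3 to -1.60 on day 25, while Mir25 stays between -0.38 and -0.08.

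Since the 3 hairpins come from 1 intron, their ratios within a library were compared. Such ratios need no scaling between libraries. The number of Mir25 reads per Mir93 read was 1.92, 1.96 and 2.04 in the control libraries of day 1 and 1.81, 1.81 and 1.86 in the KO libraries. On day 11 it was 1.60, 1.69 and 1.58 in control and 2.63, 2.58 and 2.58 in KO, and on day 25 1.42, 1.35 and 1.14 in control and 3.11, 2.82 and 3.14 in KO. The ratio was slightly lower in KO cells at first and well above control at the end.

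As KO minus control, the log2 Mir25/Mir93 ratio was -0.11, -0.14, 0.19, 0.49, 0.68 and 1.22 on days 1, 3, 6, 9, 11 and 25. On none of the 6 days did the 3 KO libraries overlap the 3 control libraries, and 3 against 3 cannot give an exact p below 0.1. The other ratios compared were without overlap on 2 to 5 days. Among them Mir93/Mir17, with a mean difference of -0.01, was so on 4. The share over all miRNA pairs was not computed. Over the 6 days together the mean difference was 0.39 (two-sided permutation test of the genotype labels within days, 100000 resamples, p = 2.60e-04, adjusted over 11 ratios 5.72e-04). Without day 25 it was 0.22 (adjusted p = 0.00779).

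Mir106b moved against Mir93 in the same way. There were 0.134, 0.136 and 0.108 Mir106b reads per Mir93 read in the control libraries of day 25 and 0.286, 0.223 and 0.245 in the KO libraries. The daily differences of the log2 ratio were -0.04, -0.09, 0.07, 0.20, 0.40 and 1.00, without overlap on the last 4 days. Their mean was 0.26 (permutation test, adjusted p = 8.17e-04), and 0.11 without day 25 (adjusted p = 0.0158). Mir25 rose against Mir106b by a smaller 0.13 (permutation test, adjusted p = 0.00192), with positive differences on days 6 to 25. Reads of the rest of *Mcm7* against Mir93 gave 0.98 (permutation test, adjusted p = 2.75e-04) and 0.38 without day 25, from as little as 1 read in a library.

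**Figure D4:**
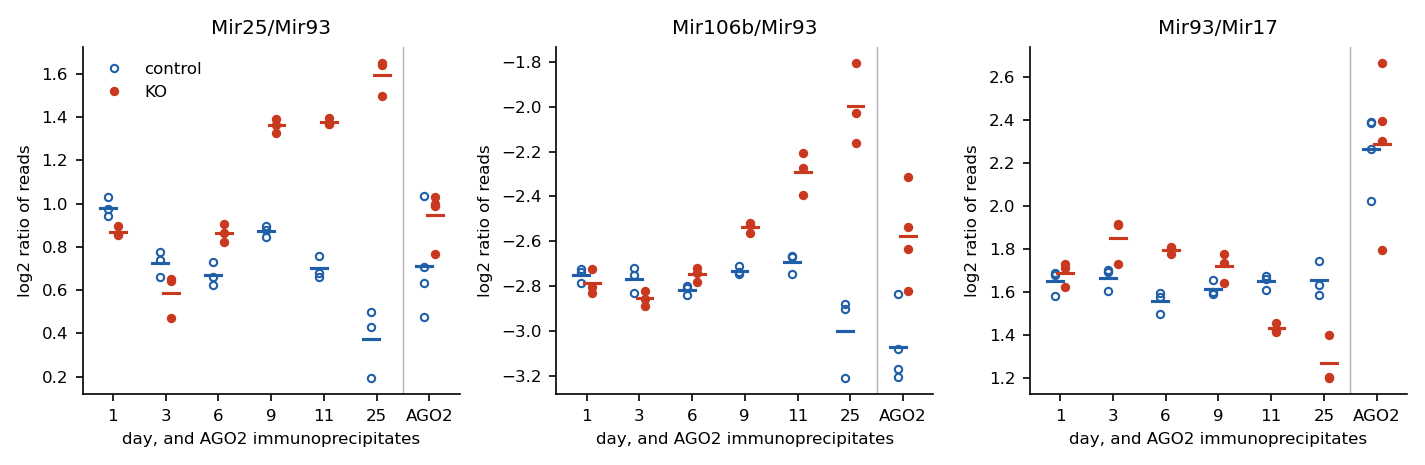
Each point is the log2 ratio of reads of a pair of miRNAs in 1 library, open for control and filled for KO, and bars are group means. The x axis gives the day and, right of the line, the AGO2 IPs. The KO points of Mir25/Mir93 cross from below control on days 1 and 3 to above it from day 6 on, and those of Mir93/Mir17 cross the other way between days 9 and 11.

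The paralogous clusters gave the setting for the miR-17 seed family. Of the 6 features of miR-17-92, 0, 1, 5, 4, 2 and 5 were called lower in KO cells on days 1, 3, 6, 9, 11 and 25, and none higher, with median log2 fold changes of -0.14, -0.09, -0.67, -0.37, -0.13 and -0.96. Of the 6 features of miR-106a-363, 0, 4, 5, 6, 3 and 6 were called lower, with medians of -0.21, -0.51, -0.96, -1.05, -0.43 and -0.86. Over all 291 miRNA features 8, 13, 69, 41, 12 and 110 were called lower. Of Mir32, Mir92b and Mir367, which share the seed of Mir25, at most 1 was called lower on any day, and 1, Mir92b, was called higher on day 25 (0.62, adjusted p = 9.42e-05).

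Against Mir17 and Mir20a, the same-seed members of miR-17-92, Mir93 kept no single direction. The mean difference of the log2 Mir93/Mir17 ratio was -0.01 (permutation test, p = 0.901), with 0.19 on day 3, 0.24 on day 6, -0.22 on day 11 and -0.39 on day 25, none of these with overlap. The mean turned to 0.07 without day 25 (adjusted p = 0.0826) and to values from 3.9e-05 to 0.0044 without KO library 1 of day 3, KO library 1 of day 9, KO library 3 of day 25 or control library 3 of day 25. For Mir93/Mir20a the mean was -0.04 (permutation test, p = 0.582), and 0.09 without day 25.

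Against miR-106a-363 the members were higher in KO cells. Mir106b/Mir106a rose by 0.60 on the log2 scale and Mir25/Mir363 by 0.43, both positive on all 6 days (permutation tests, p = 1e-05 each, the smallest that 100000 resamples can give). Mir93/Mir20b rose by 0.40 and Mir93/Mir106a by 0.34 (permutation tests, adjusted p = 6.78e-04 and 1.83e-04), but Mir93/Mir20b was -0.30 on day 25 and Mir93/Mir106a -0.10 on day 11. Mir25/Mir92-1 differed by 0.12 (adjusted p = 0.00534, permutation test), and without day 25 by 0.09, which did not pass (adjusted p = 0.0513). The mature miR-92a-3p also comes from Mir92-2, so that reads of this arm may be split between the 2 features.

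The features most like each member over the 12 group means of the time course were looked up among 288 other miRNA features, as a description. For Mir106b they were Mir17 (Pearson r = 0.980), Mir20a (0.947) and Mir19a (0.846), all of miR-17-92 on chromosome 14. For Mir93 they were Mir17 (0.955), Mir20a (0.895) and Mir200c (0.886). For Mir25 they were Mir151 (0.908), Mir1249 (0.905) and AC130827.1 (0.880), none of a paralogous cluster. Within the cluster, r was 0.944 for Mir93 and Mir106b, 0.778 for Mir25 and Mir106b and 0.720 for Mir25 and Mir93. The 12 means share libraries and scaling.

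Other genes of the MCM family, which gave mRNA fragments here and no miRNA, were few in reads. Of 8 looked up, 5 passed the filter of 10 RPM in 3 libraries, through whichever libraries were high. None was called on days 1, 3, 6 and 11. On day 9, 1 of the 5 was higher, where 12.3% of all features were. On day 25, 3 were higher and 1 lower, with a median log2 fold change of 0.80, where 18.0% of all features were higher and 17.0% lower (median -0.0016). As to the host's promoter, the E2F-like letters GCGGGAA (either strand) stood in both *Mcm7* windows of RefSeq (250 bases before to 50 after a start, GRCm38.p6), as in 4.6% of all 32851 windows. The letters CACGTG (7.15% of windows) and TATAAA (13.62%) were in neither. No readout of the promoter was measured in these libraries.

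Next it was asked whether the difference was seen in miRNA bound to AGO2. Mir93 was lower in AGO2 IPs of KO cells, with a call that depended on scaling. The control libraries held 8203, 7391, 6691 and 7674 RPM and the KO libraries 6716, 6722, 5155 and 5616 RPM, and the highest KO libraries stood just above the lowest control library. The fitted difference was -0.57 ± 0.131 (limma, adjusted p = 0.00854 over 456 features, 11.6% of them called lower).

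That call was lost with library totals (-0.31, adjusted p = 0.116), without a filter on low features (adjusted p = 0.0809) and when replicates 1 and 2 and replicates 3 and 4 were averaged (adjusted p = 0.196). It was kept without each library in turn (-0.69 to -0.53) and with the replicate number as a block (limma, adjusted p = 0.0182). With library totals, the AGO2 log2 fold change of Mir93 moved up by 0.26. The KO libraries of AGO2 also had more reads of the 5 fibroblast markers (3698 to 4367 RPM against 1336 to 1831 in control) and of the 3 blood markers (3152 to 6178 against 1105 to 1474). The part of these values in the result was not tested.

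Mir25 in AGO2 IPs had 13405, 11458, 13690.3 and 10670.0 RPM in control and 13344, 11447, 10287 and 11484 RPM in KO, which overlapped (-0.34 ± 0.157, adjusted p = 0.128). It passed with median-ratio factors (-0.47, adjusted p = 0.0397) and without KO library 4 (-0.48, adjusted p = 0.049985). Mir106b had 888, 1035, 743 and 907 RPM in control and 950.2, 1157, 1036 and 903 RPM in KO. Its fitted difference of -0.08 ± 0.14 (adjusted p = 0.74) turned to 0.18 with library totals (adjusted p = 0.419).

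*Mcm7* in AGO2 IPs was called lower (-0.41 ± 0.128, adjusted p = 0.0348) and not with the replicate number as a block (adjusted p = 0.0571), with library totals (-0.15, 0.358) or without control library 1, 3 or 4 (0.101, 0.0977 and 0.0572). Reads over the rest of the gene were 7, 3, 6 and 7 in control and 0, 0, 0 and 3 in KO, near or at the floor.

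Within AGO2 libraries, Mir106b reads per Mir93 read were 0.108, 0.140, 0.111 and 0.118 in control and 0.142, 0.172, 0.201 and 0.161 in KO. The groups did not overlap, with a difference of 0.50 on the log2 scale (exact permutation test, p = 0.0286, the smallest that 4 against 4 allow; adjusted over 11 ratios 0.105). Mir25/Mir93 differed by 0.23 (exact permutation test, p = 0.143). Mir93/Mir20b and Mir25/Mir363 were higher in KO by 0.97 and 0.74 (exact permutation test, p = 0.0286 each, adjusted 0.105). No AGO2 ratio passed after adjustment. These tests permuted labels over all 8 libraries, although control and KO libraries of the same replicate number were correlated in 4 of 4 pairs. Of the 8 libraries, 4 correlated best with their own number, so that pairing cannot be told apart from a wider shared structure. With labels swapped within the 4 pairs, a test chosen after seeing the data, Mir106b/Mir93, Mir93/Mir20b and Mir25/Mir363 were higher in KO in 4 of 4 pairs, each with exact p = 0.125, the smallest that 4 pairs allow (adjusted 0.275).

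The 2 libraries with the label none were shallow, at 57155 reads for control and 9830 for KO. The study describes a pull-down with beads lacking serum as its negative control. Mir93 gave 7541 RPM (6848 to 8284) from 431 reads in the control library and 2339.8 RPM (1484 to 3509) from 23 reads in the KO library. In brackets are exact binomial 95% intervals, which cover counting error only. Mir25 gave 12369.9 RPM (11479.8 to 13310.0) and 6307 RPM (4839 to 8078), and Mir106b 857 RPM (634 to 1133) and 305 RPM (62.9 to 892). The *Mcm7* feature, close to their sum, stood at 20768 RPM (19615 to 21971) in the control library, beside 19251 to 22497 RPM in AGO2 control. In the KO library it stood at 8952 RPM (7186 to 11018), beside 16477 to 21010 RPM in AGO2 KO. With 1 library per genotype there was no test.

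All 3 miRNAs were found in PGCs, the precursors of eggs and sperm, with 1 library per stage and sex and so no test. Mir93 gave 3528 RPM (3459.5 to 3598) in female and 5162 RPM (5081 to 5244) in male PGCs of E13.5, and 2944 RPM (2887 to 3002) and 3306 RPM (3221 to 3393) at E14.5. Mir25 gave 4798 RPM (4717 to 4879) in female and 11167 RPM (11048 to 11287) in male PGCs of E13.5, and 9813 RPM (9709 to 9917) and 10834 RPM (10680.2 to 10989) at E14.5. These are the 4 libraries without suffix, in which Mir106b ranged from 577 to 1004 RPM. Among these 4, female PGCs of E13.5 had the lowest Mir25 value and male PGCs of E13.5 the highest value of each of the 3. In the 3 R1-suffixed PGC libraries Mir106b ranged from 0 to 1053 RPM and Mir25 from 166 to 10725.5 RPM.

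The make-up of the cluster differed among these libraries. Mir25 made up 53.4% of the reads of the 3 hairpins in female and 64.4% in male PGCs of E13.5, and 73.6% and 73.4% at E14.5. Mir93 made up 39.2%, 29.8%, 22.1% and 22.4%. In the R1-suffixed library of E14.5 male PGCs, Mir93 stood at 4926 RPM with 29.5% of the hairpin reads. These values were nearer to the E13.5 male library without suffix (5162 RPM, 29.8%) than to its own namesake (3306 RPM, 22.4%). The R1-suffixed libraries of E13.5 held 92 (female) and 2 (male) reads of Mir93. In the female one Mir93 stood at 803 RPM with 24.6% of the hairpin reads, and Mir25 made up 71.1%. These shares were nearer to those of the E14.5 libraries without suffix than to its own namesake (39.2% and 53.4%, with Mir93 at 3528 RPM). Reads over the rest of *Mcm7* were 128, 64, 98 and 48, or 21.5 to 45.5 RPM, in the 4 libraries without suffix.

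**Figure D5:**
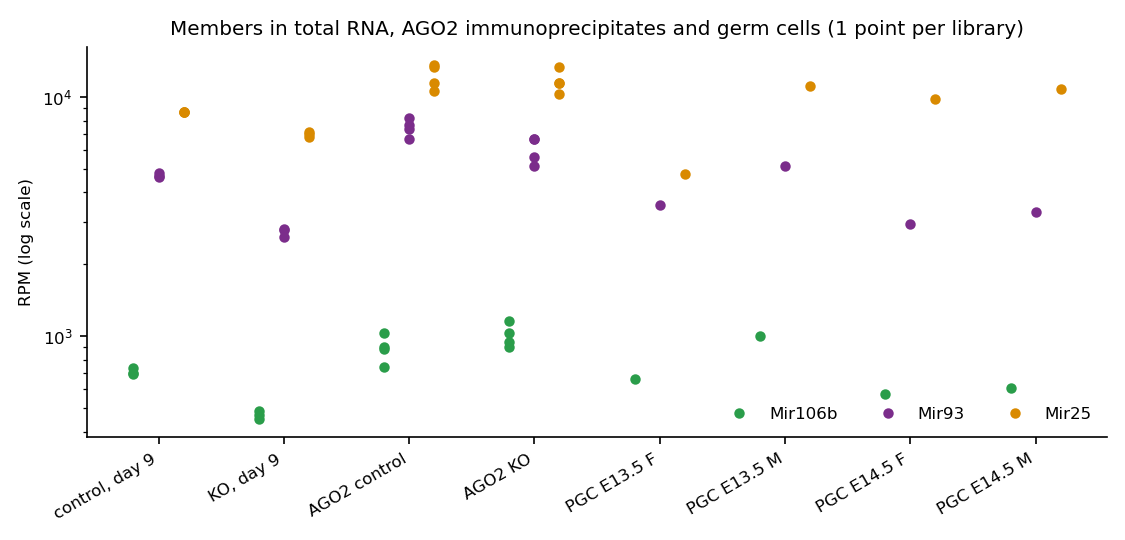
Each point is the RPM of Mir106b, Mir93 or Mir25 in 1 library, on a log scale, for control and KO ESCs of day 9, the AGO2 IPs and the 4 PGC libraries without suffix (F, female; M, male). Mir25 is above Mir93 and Mir93 above Mir106b in every library, with the narrowest gap between Mir25 and Mir93 in female PGCs of E13.5 (4798 against 3528 RPM).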

How the data were processed

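Small RNA libraries were made with Illumina's small RNA kit. The authors trimmed reads (Trim Galore 0.3.5), kept 20 to 24 nt, mapped them to NCBIM37 (Bowtie2 2.2.9) and counted features in SeqMonk. The deposited values are RPKM, although the file is named for counts. RPM was RPKM times the span in kilobases, and whole reads were read back from each library's smallest step (100% of low values whole within 5% of the step). In R1-suffixed libraries 95.4 to 96.9% of the read counts were even.

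Differences were fitted with limma 3.58.1 (R 4.3.3, limma-trend) on log2(RPM + 1) after TMM scaling (own implementation), over the 36 time course libraries without suffix together and over the 8 AGO2 libraries apart. Features needed 10 RPM in 3 libraries. A feature was called at a Benjamini-Hochberg adjusted p under 0.05 over all features of the fit. In AGO2, control and KO libraries of the same replicate number, as in the titles, were correlated (correlation of deviations 0.19 to 0.39 in 4 of 4 pairs). Of the 8 AGO2 libraries, 4 correlated best with their own number in the other genotype. Ratios were of RPM + 1, with permutation tests. In AGO2 libraries the rest of *Mcm7* held at most 0.32 RPM, less than the 1 RPM added, so that its ratios there rest mostly on the pseudocount. Alike features were ranked by Pearson's r over 12 group means. Members, lists, named features and tests were chosen with earlier results of these data known. The scripts were tested on simulated data.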

Additional observations from a re-analysis of the deposited data

Results flagged for a closer look

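The genotype difference of 3 features changed between days, by the test of that change in the limma fit. For Mir93 it changed by -0.66 from day 1 to day 11 and by -1.50 from day 1 to day 25, for Mir106b by -0.47 to day 25 and for *Mcm7*, which holds the reads of both, by -0.61 to day 25 (all on the log2 scale).

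Among the 4 AGO2 KO libraries, library 2 stood apart in its log2 Mir25/Mir93 ratio, at 0.77 against 0.99 to 1.03 in the other 3. Its gap to the nearest was 0.843 of the whole range of the group, above the limit of Dixon's test for 4 samples. Chance marks about 1 in 20 groups in this way, and 30 sets of 4 AGO2 values were looked at.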

How the results depend on the processing

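Across 92 results and 1644 alternatives, 1564 kept direction and side of the threshold (a count of calls, a size within 1.5 times). Mir93 was called lower on days 6, 9, 11 and 25 under every alternative run. Scaling by library totals moved the log2 fold changes of Mir93 by up to 0.20 between time course groups and by 0.26 in AGO2. It strengthened Mir25 on day 9 (-0.30) and the changes of the KO effect to day 11 of *Mcm7* (-0.31) and Mir106b (-0.39) and to day 25 of Mir25 (-0.37), turned Mir25 to day 11 (-0.044), *Mcm7* in control on day 25 against day 1 (0.050) and Mir106b in AGO2 (0.18), and ended the AGO2 calls of *Mcm7* (-0.15) and Mir93 (-0.31). Median-ratio factors called Mir25 on day 9 (-0.23) and in AGO2 (-0.47) and ended the KO day 11 against day 1 calls of Mir25 (-0.19) and Mir106b (-0.20). With no filter these 2 calls (-0.23 and -0.24) and the AGO2 calls of *Mcm7* (-0.41) and Mir93 (-0.57) were lost. Averages of replicates 1-2 and 3-4 lost the same AGO2 calls (-0.41 and -0.57), with 68 features called in place of 166. voom called Mir25 on day 9 (-0.19), as did day 9 alone (-0.22). In the R1-suffixed libraries Mir25 on day 6 (-0.27) and *Mcm7* on day 11 (-0.28) were lost and Mir93 on day 3 was -1.82e-04. A pseudocount of 0.25 RPM turned rest of *Mcm7*/Mir93 in AGO2 to -0.53. Without day 25, Mir93/Mir17 (0.070) and Mir93/Mir20a (0.086) turned and Mir25/Mir92-1 (0.094) was lost. What caused these changes was not tested.

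Features called in either direction numbered 98, 161, 595, 475, 223 and 904 on days 1, 3, 6, 9, 11 and 25. They moved to 63, 85, 308 and 1664 without the filter (days 1, 3, 9 and 25), to 272, 904, 395 and 421 with voom (days 3, 9, 11 and 25), to 854, 451 and 382 with each day alone (days 9, 11 and 25) and to 80, 306 and 224 in R1-suffixed libraries (days 3, 6 and 9). The change of the KO effect to day 25 gave 515 calls and 243 with voom, and day 25 against day 1 gave 1314 in control and 1217 in KO, and 2135 and 1827 without the filter. With library totals the calls lower and higher became 11 and 102 on day 1 (from 24 and 74), 157 and 438 on day 6 (from 241 and 354), 248 and 242 on day 9 (from 158 and 317), 90 and 138 on day 11 (from 61 and 162), 574 and 365 on day 25 (from 440 and 464) and 21 and 137 in AGO2 (from 53 and 113), for the change of the KO effect 156 and 120 to day 11 (from 77 and 156) and 408 and 168 to day 25 (from 264 and 251), and for KO day 11 against day 1, 523 and 250 (from 365 and 364). With median-ratio factors day 6 gave 362 and 282. Reads of *Mcm7* outside the hairpins were few, 1 to 61 in a time course library.

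Leaving out 1 library gave ranges of -0.035 to 0.061 for Mir93 on day 3, -0.28 to -0.16 for Mir25 on day 9, -0.12 to 0.0099 for Mir25, -0.34 to -0.22 for *Mcm7* and -0.42 to -0.28 for Mir106b on day 11, and -0.54 to -0.34 for *Mcm7*, -0.48 to -0.23 for Mir25 in AGO2. Against day 1 they were -0.093 to 0.019 (day 11) and -0.021 to 0.13 (day 25) for Mir106b in control, and -0.29 to -0.18 for Mir25 and -0.31 to -0.20 for Mir106b in KO on day 11. Counts of calls ran from 26 to 108 on day 1 (26 without control library 3, 35 without KO library 1) and 96 to 166 on day 3 (at most 103 without KO library 1, control library 1 or control library 2). Mir93/Mir17 ranged from -0.017 to 0.0044 over the 6 days and -0.10 to 0.19 in AGO2, Mir93/Mir20a in AGO2 from -0.25 to 0.11 and rest of *Mcm7*/Mir93 in AGO2 from -0.083 to 0.11.

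Time course replicate numbers paired no libraries (0 of 18 correlations above 0.1, from -0.07 to 0.05; 9 of 36 libraries correlated best with their own number). With them as a block, no member's call changed, the counts were 106, 171, 594, 469, 223 and 893, and the comparisons between days within a genotype were not run. In AGO2 the replicate block gave 187 calls in place of 166, lost *Mcm7* (-0.41, adjusted p = 0.0571) and changed no other call of a member. Swapping labels within the AGO2 pairs, added after seeing the data, left all 11 ratios without a call (adjusted p = 0.275 to 1).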
